A study of Caenorhabditis elegans with 3 samples.

Results

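Transcript levels after 4 h with multiwall carbon nanotubes were set against those at 0 h in wild-type N2 hermaphrodites of the nematode Caenorhabditis elegans. The 4 h array was made from young adults kept for 4 h with 1 mg/L of the nanotubes, tube-shaped particles of carbon, in K-medium, a solution of potassium and sodium chloride. The 0 h array was made from young adults without nanotubes. A 24 h array of the same series gives later values, and it also enters the filter and the choice of probe set described next. All animals came from age-synchronised cultures raised on agar with Escherichia coli as food, and each time has 1 array of total RNA. Every gene annotated alone to a probe set was taken, with its brightest probe set, if it passed a filter. Its log2 value, averaged over the 0 h, 4 h and 24 h arrays, had to reach the median probe set (7.09, an intensity of 103.9). This left 8634 of 17118 genes. Values are normalised probe set intensities, ratios are 4 h over 0 h on the log2 scale after 32 was added to each intensity, and "higher" and "lower" without further words mean 2-fold or more at 4 h. A number alone in brackets after a gene is its log2 ratio.

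In this animal, foreign compounds are handled mostly by the intestine and the epidermis, in steps that oxidise them (cytochromes P450, flavin monooxygenases), attach a sugar or glutathione to them (UDP-glycosyltransferases, glutathione S-transferases) and export them. The same tissues carry the cuticle-building, metal-binding, fat-storing and antimicrobial genes of the worm, and transcription factors such as SKN-1, DAF-16, HSF-1 and nuclear hormone receptors act on many of them. Vitellogenin vit-5, the yolk protein made by the adult intestine, had an intensity of 25035 at 4 h and 25930.1 at 0 h, and the oocyte and eggshell gene cpg-2 one of 12738 at 4 h and 14016 at 0 h, both bright, as is known for adult hermaphrodites.

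With a single array on each side there is no spread between replicates, so no test of any gene was possible and the ratios carry no error between cultures. No array of worms kept 4 h in K-medium without nanotubes was used, so exposure, time in the medium and age cannot be told apart. The labels do not say whether the worms had food during the exposure, so feeding cannot be told apart from it either. Among 1830 genes with 2 or more passing probe sets, the SD of a ratio between probe sets of the same gene was 0.24 log2 units. These probe sets share the 2 arrays, so this SD holds no error between arrays. The brightest probe set gave the lower ratio in 77.1% of these genes, and its ratio minus that of the others averaged -0.18, an offset the SD includes. Values at 4 h and 0 h were identical for 27.8% of probe sets, and some bright genes (elo-1, far-2, rps-23) have the same value on all 3 arrays. The step that made such ties is not given in the sources used here, so an equal value describes the deposited numbers and does not show unchanged RNA. Control transcripts probed along their length had higher 5' to 3' ratios at 4 h than at 0 h in 4 of 4, with a median log2 difference of 0.32, and the part of this in the results was not tested. The 9 hybridisation control probe sets averaged -0.41 (SD 0.11), so scaling on them would shift the median of all genes by 0.41 (log2), and each direction below is relative to the other genes on the array. Over all 8634 genes 3892 ratios lay above 0, 3471 below 0 and 1271 at 0. Ratios and list medians between -0.41 and 0 would turn above 0 under that scaling, which is called control scaling below. The 12 poly-A control probe sets averaged -0.70, further from 0 in the same direction. Scaling on those was not run, so control scaling is not an upper limit of the shift.

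By 2-fold or more, 148 genes were higher at 4 h, 1.71% of those measured, and 281 were lower, 3.25%. At 1.5-fold, 531 genes were higher (6.15%) and 722 lower (8.36%). A 3-fold difference was passed by 45 higher (0.521%) and 86 lower genes (0.996%). The higher genes had a median intensity of 655 at 4 h and 203 at 0 h, and the lower genes one of 246 at 4 h and 774 at 0 h. Lower calls were spread unevenly over brightness. From the dimmest to the brightest of 4 equal parts of the genes, 77, 100, 72 and 32 were lower and 31, 49, 33 and 35 were higher. In 16 higher and 15 lower genes the smaller value was under the background floor of 67.8, and for these the fold is given as a lower bound. Just inside the threshold lay T05H10.1 (log2 ratio 1.0004) and T07E3.4 (-1.001), and just outside it mtl-2 (0.999) and C24D10.2 (-0.997).

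**Figure D1:**
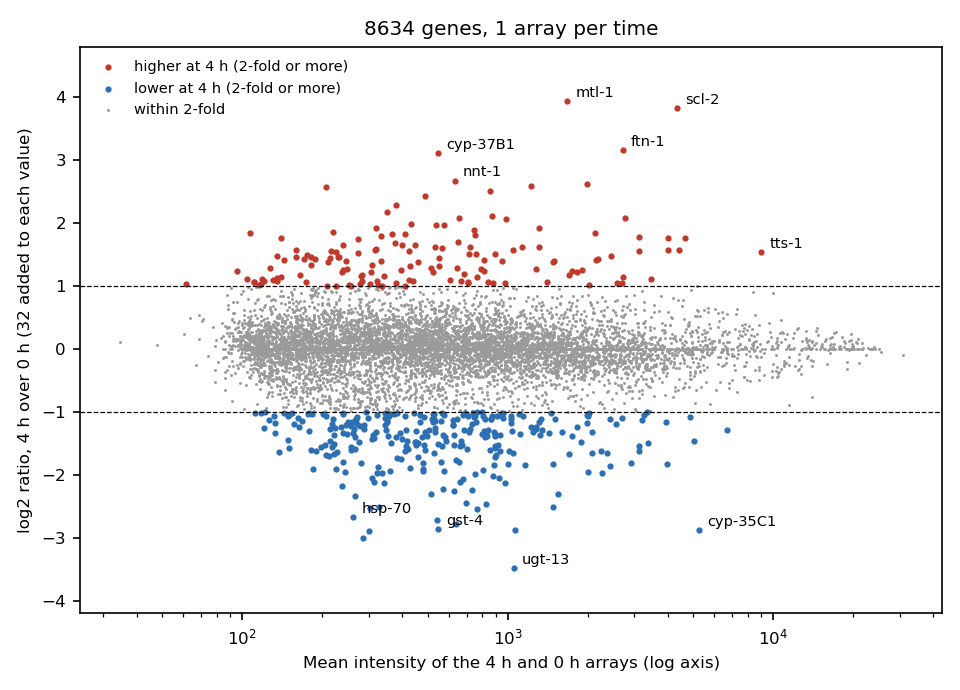
Log2 ratio of 4 h over 0 h against the mean intensity of the 4 h and 0 h arrays (log axis) for the 8634 genes, 1 point per gene, with dashed lines at 2-fold. The lower genes reach -3.48 for ugt-13, the higher genes reach 3.94 for mtl-1, and the brightest genes scatter least.

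A second probe set of the same gene, which played no part in choosing the calls, was available for some of the called genes. All other probe sets of 20 higher genes were above 0, and in 11 of the 20 they passed 2-fold as well. Among 37 lower genes they were below 0 in 35 and passed 2-fold in 17. For tln-1 and ssq-2 the other probe set was at a ratio of 0. Among genes named below, the second probe sets of cki-1 (0.48), hil-3 (0.59), ist-1 (0.87), nhr-3 (-0.40), cpt-4 (-0.53) and toh-1 (-0.67) stayed within 2-fold. So did the other probe sets of unc-89, smd-1, bcat-1 and sptl-3, given with those genes. These probe sets share the array, so the count speaks to the probes and not to the animals. Probe sets open to cross-hybridisation made up 33.8% of the higher and 33.8% of the lower genes, against 39.0% of all genes measured. Of the higher and lower genes named below, the probe sets of Y16B4A.2, abu-15, abu-6, acs-22, act-5, atg-16.2, bli-1, cdr-4, col-120, cpg-9, cpt-4, cyp-32B1, cyp-35C1, cysl-2, dod-19, dpy-5, efk-1, eif-2A, elo-5, elo-6, fbxa-69, fmo-1, folt-2, ftn-1, gstk-2, hbl-1, hch-1, hil-3, hil-7, hmit-1.3, hphd-1, hsp-70, nhr-3, pho-1, pmp-5, tatn-1, tdo-2, tnt-3 and ttr-44 may cross-hybridise with related transcripts, so their values are uncertain to that extent.

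The highest ratio belonged to mtl-1, a metallothionein that binds zinc and cadmium, at 3165 at 4 h and 177 at 0 h. Next came scl-2, for a secreted protein of the CAP superfamily, at 8144 at 4 h and 541 at 0 h and the intestinal ferritin ftn-1, which stores iron, at 4899.7 at 4 h and 519 at 0 h. The cytochrome P450 cyp-37B1 was at 1002 at 4 h and 87.2 at 0 h. These genes were dim to moderate at 0 h and among the brighter genes at 4 h. Further named genes of the top 25 were nnt-1, the mitochondrial transhydrogenase that makes NADPH (1113 at 4 h and 147 at 0 h, log2 ratio 2.68), fmo-1, a flavin monooxygenase (842 at 4 h and 129 at 0 h, log2 ratio 2.44), and glc-1, a glutamate-gated chloride channel subunit (1079.7 at 4 h and 229.5 at 0 h, log2 ratio 2.09). The legumain-family protease lgmn-1 stood at 4471 at 4 h and 1032 at 0 h, the myo-inositol transporter hmit-1.3 at 1608 at 4 h and 358 at 0 h, and the tetraspanin tsp-2 at 709 at 4 h and 155 at 0 h. The actin-monomer-binding thymosin tth-1 had 3339 at 4 h and 909 at 0 h. Of the 25 genes, 8 carry only a sequence name. The highest of those were ZC395.5 (3435 at 4 h and 532 at 0 h, log2 ratio 2.62), C50F7.5 (2124 at 4 h and 327 at 0 h, log2 ratio 2.59) and F43C11.7 (1481 at 4 h and 233 at 0 h, log2 ratio 2.51).

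At the other end, ugt-13 had 147 at 4 h and 1959.7 at 0 h and ugt-63 had 38.7 at 4 h and 532 at 0 h; the second value at 4 h lies under the floor, so ugt-63 was at least 5.64-fold lower. The cytochrome P450 cyp-35C1 had 1234 at 4 h and 9296 at 0 h, and the glutathione S-transferase gst-4, a widely used reporter of SKN-1 activity, had 107 at 4 h and 981 at 0 h. Conjugating and oxidising enzymes of these families accounted for 8 of the 25 lowest genes. The nematode-specific peptide gene nspe-1 (46.8 at 4 h and 555 at 0 h, at least 5.88-fold lower at 4 h), the chondroitin proteoglycan cpg-9 (499.5 at 4 h and 2580.3 at 0 h, log2 ratio -2.30) and the C-type lectin clec-265 (201 at 4 h and 1324 at 0 h, log2 ratio -2.54) were also among them. Of the 25, 7 carry only a sequence name, among them Y16B4A.2 (230.4 at 4 h and 1893 at 0 h, log2 ratio -2.87) and F21C10.9 (119.8 at 4 h and 964 at 0 h, log2 ratio -2.71). Of all called genes, 42.6% of the higher and 34.5% of the lower had only such a name, against 32.6% of all genes measured.

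**Figure D2:**
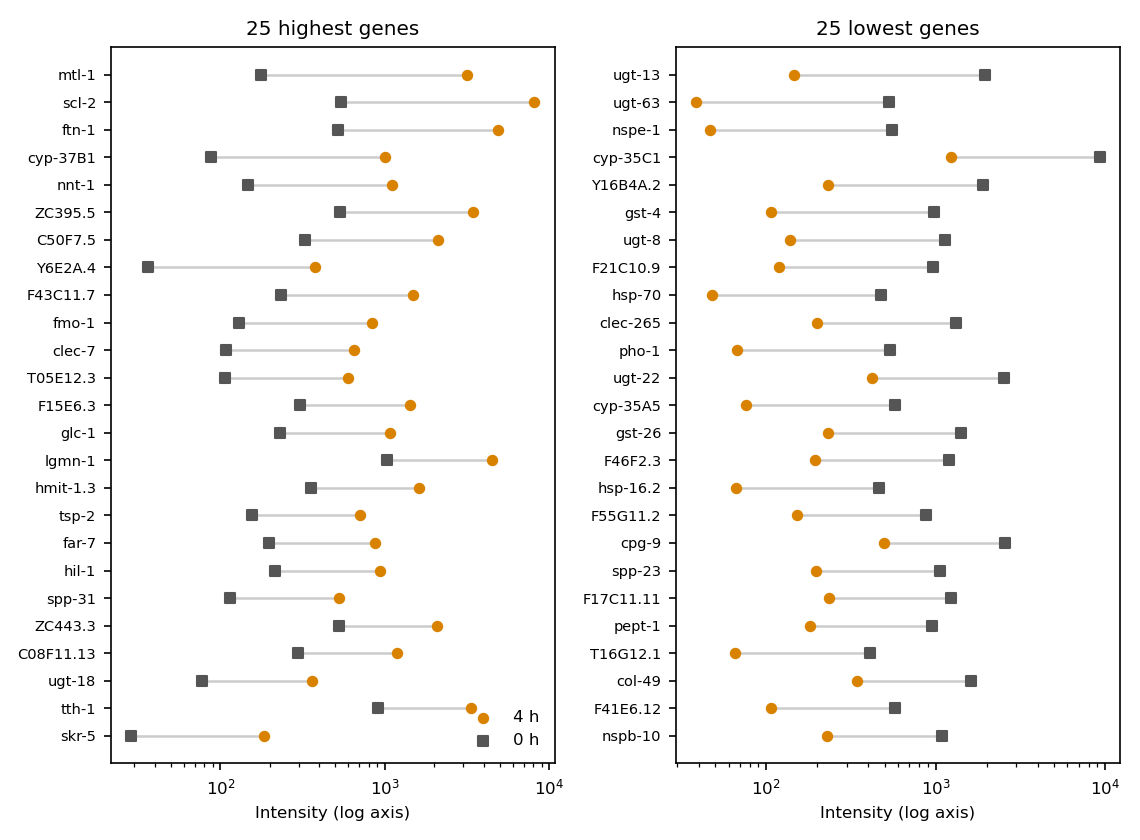
Intensity (log axis) at 4 h (circles) and 0 h (squares) of the 25 genes with the highest ratio (left) and the 25 with the lowest ratio (right), 1 array per time. Both groups span dim and bright genes, from skr-5, which is under the floor at 0 h, to cyp-35C1, at 9296 at 0 h.

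Metal genes did not move as one group. The second metallothionein mtl-2 was bright on both arrays, at 6866 at 4 h and 3419 at 0 h (log2 ratio 1.00, and 0.70 to 1.06 in its other probe sets), and cdr-4, a cadmium-responsive glutathione S-transferase-like gene, was lower at 343 at 4 h and 1510.5 at 0 h. Of 6 measured metallothionein and cadmium-response genes, 1 was higher and 1 lower, with a median ratio of -0.52 (2 higher and 1 lower under control scaling). The second ferritin ftn-2 had 8642 at 4 h and 5846 at 0 h (0.56), so it too lay above 0 but within 2-fold. Of 5 listed heme-responsive genes 1 was lower, hrg-7, a secreted protein that signals heme status between tissues, at 794 at 4 h and 2596 at 0 h. Of the 5, 4 lay below 0, with a median of -0.86. All 8 measured genes with the stem hrg had a median of -0.74. Among 13 zinc transporters and carriers none passed 2-fold (2 higher under control scaling), and their median was 0.

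The 27 cytochromes P450 divided between members, with 3 higher (11.1%) and 4 lower (14.8%), against 1.71% and 3.25% of all genes. Besides cyp-37B1 the higher ones were cyp-34A9 (1198 at 4 h and 427 at 0 h, log2 ratio 1.42) and cyp-32B1 (255 at 4 h and 64.2 at 0 h, at least 2.87-fold higher at 4 h). The lower ones were all of the CYP-35 subfamily, which responds to many foreign compounds and takes part in fat storage. After cyp-35C1 came cyp-35A5 (75.6 at 4 h and 578 at 0 h, log2 ratio -2.50), cyp-35A4 (317 at 4 h and 1289.7 at 0 h, log2 ratio -1.92) and cyp-35A3 (1762 at 4 h and 5005 at 0 h, log2 ratio -1.49), while cyp-35A2 was at 1798 at 4 h and 3147 at 0 h (-0.80). The median over all 27 was -0.11, 20 were within 2-fold, and control scaling gave 5 higher and 4 lower. Of 3 flavin monooxygenases, fmo-1 was higher, and fmo-4 had the same value on both arrays. Of 24 short-chain dehydrogenases 2 (8.33%) were lower, against 3.25% of all genes, and none was higher. The lower ones were dhs-23 (98.5 at 4 h and 529 at 0 h, log2 ratio -2.10) and dhs-25 (444 at 4 h and 1348 at 0 h, log2 ratio -1.54). Control scaling gave 3 higher and 2 lower.

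Among the UDP-glycosyltransferases 13 of 37 (35.1%) were lower and 3 (8.11%) higher, against 3.25% and 1.71% of all genes. Their median was -0.58, with summed intensities of 10412 at 4 h and 19887 at 0 h. After ugt-13 and ugt-63 the lowest were ugt-8 (139 at 4 h and 1138 at 0 h, log2 ratio -2.78) and ugt-22 (421 at 4 h and 2541 at 0 h, log2 ratio -2.51). The 3 higher members were ugt-18 (363 at 4 h and 77.2 at 0 h, log2 ratio 1.85), ugt-31 (353 at 4 h and 107 at 0 h, log2 ratio 1.47) and ugt-1 (405 at 4 h and 161 at 0 h, log2 ratio 1.18). Control scaling would leave 10 lower and 6 higher. Among 23 glutathione S-transferases 6 (26.1%) were lower and 1 (4.35%) was higher, with a median of -0.27. Control scaling gave 4 lower, 3 higher and a median of 0.14. The lower members after gst-4 included gst-26 (233 at 4 h and 1420.5 at 0 h, log2 ratio -2.45), gst-5 (330.3 at 4 h and 1431 at 0 h, log2 ratio -2.01) and gst-10 (275 at 4 h and 1032 at 0 h, log2 ratio -1.79). The higher one was the kappa-class gstk-2, barely past the threshold at 310.2 at 4 h and 139 at 0 h, and no member remained higher when 100 was added in place of 32. The brightest of the family, gst-1, had the same value on both arrays.

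**Figure D3:**
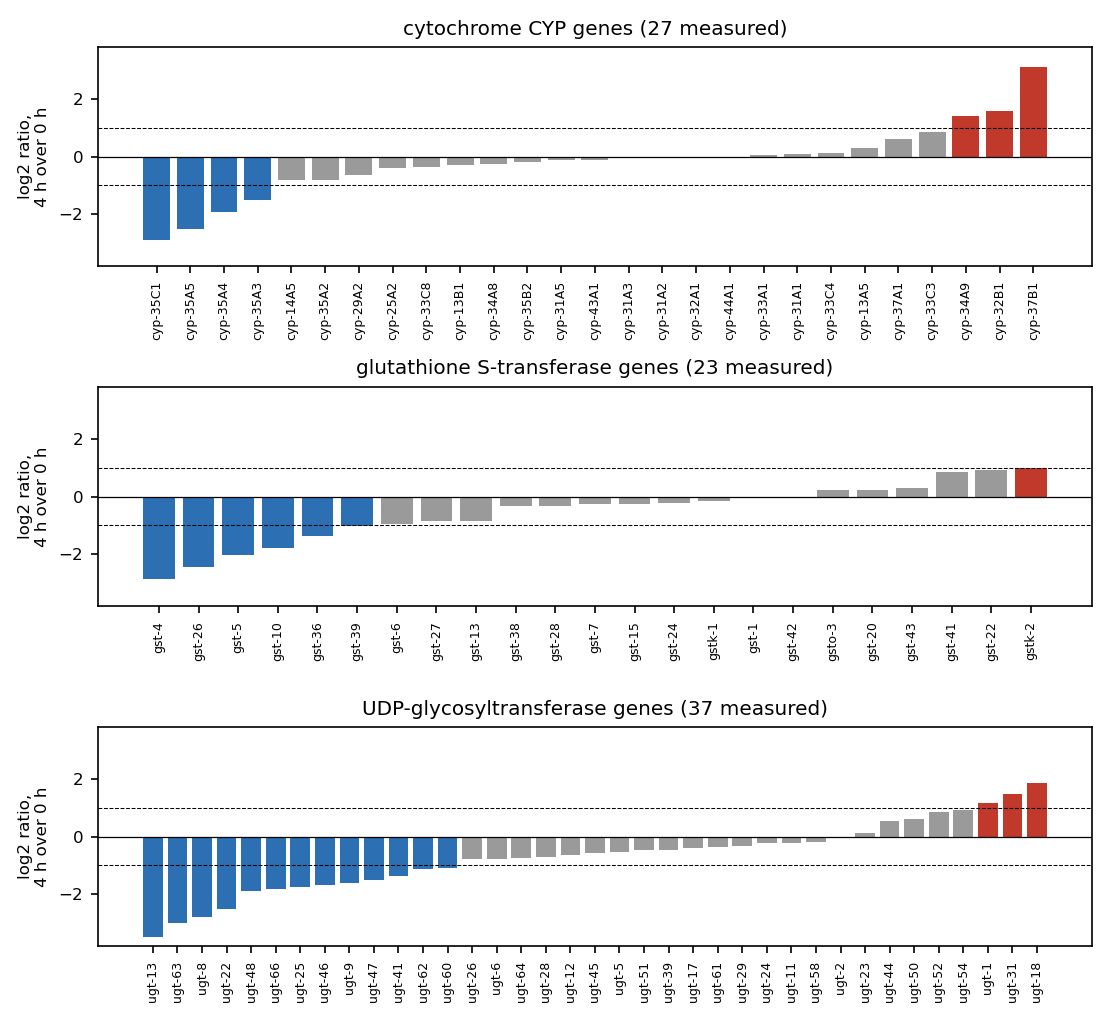
Log2 ratio of 4 h over 0 h for each measured cytochrome P450, glutathione S-transferase and UDP-glycosyltransferase gene, ordered within its family, with dashed lines at 2-fold. Most members of the 3 families lie within 2-fold, the lower tail is longest in the UDP-glycosyltransferases, and cyp-37B1 stands apart at 3.12.

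Of 28 ABC transporters 1 (3.57%) was lower, the peroxisomal pmp-5 (1529 at 4 h and 3334 at 0 h, log2 ratio -1.11), against 3.25% of all genes, and the median was -0.065. Under control scaling 1 was higher and none lower. Of 23 antioxidant enzymes 2 (8.70%) were lower, against 2 higher and none lower under control scaling. The lower ones were the glutathione peroxidase gpx-3 (131 at 4 h and 400.2 at 0 h, log2 ratio -1.40) and the methionine sulfoxide reductase msra-1 (2213 at 4 h and 4479 at 0 h, log2 ratio -1.01). The bright members prdx-2, a peroxiredoxin (0.30), and sod-1, the cytosolic superoxide dismutase (-0.21), stayed within 2-fold. In glutathione synthesis and NADPH supply nnt-1 was the only 1 of 12 past 2-fold, and 9 of the 12 lay below 0.

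The chaperone genes hsp-70 and hsp-16 were low at 4 h, which did not hold for chaperones in general. The stress-responsive hsp-4 (-0.18) and hsp-60 (-0.30) stayed within 2-fold, as did the small chaperone hsp-12.3 (0.85). The inducible hsp-70 had 47.7 at 4 h and 474 at 0 h, so it was at least 5.07-fold lower. Of the small chaperones, hsp-16.2 had 66.3 at 4 h and 466 at 0 h, a drop of at least 4.99-fold. Its chromosomal neighbour hsp-16.41 had 50.3 at 4 h and 224 at 0 h, a drop of at least 2.56-fold. All 3 were under the floor at 4 h and above it at 0 h. Among small chaperones hsp-17 was also lower (456 at 4 h and 1173 at 0 h, log2 ratio -1.30) and hsp-12.6, known from the DAF-16 programme, was higher (274 at 4 h and 76.4 at 0 h, log2 ratio 1.49), so 3 of 10 small heat shock genes were lower and 1 was higher (2 lower and 2 higher under control scaling). Probe sets shared by several genes lay outside the rule, and those of this family past 2-fold were lower too. The probe set of hsp-16.49 and hsp-16.48 had 230.1 at 4 h and 1679 at 0 h, that of hsp-16.1 and hsp-16.11 had 101 at 4 h and 752 at 0 h, and the 2 probe sets of F44E5.4 and F44E5.5, members of the HSP70 family, had 189 and 431 at 4 h, against 1351 and 2787 at 0 h.

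Among 13 HSP70 and HSP90 genes hsp-70 was the only 1 past 2-fold, and 1 other would be higher under control scaling. The cytosolic hsp-90 had 6786 at 4 h and 7158 at 0 h, hsp-110 had 5777 at 4 h and 5978 at 0 h and the mitochondrial hsp-6 had 4303 at 4 h and 4284 at 0 h. None of 21 endoplasmic reticulum folding genes, 15 mitochondrial chaperone and stress genes, 6 CCT chaperonin subunits or 33 proteasome subunits passed 2-fold, and the medians of these lists lay between -0.081 and 0.11. Autophagy genes leaned upward, with 20 of 25 above 0 (median 0.19). Of these 25, 2 (8%) were higher, against 1.71% of all genes, and none was lower (4 higher under control scaling). The higher ones were atg-16.2, part of the complex that conjugates LGG-1 to membranes (496 at 4 h and 168 at 0 h, log2 ratio 1.40), and epg-2, an adaptor for protein aggregates (608 at 4 h and 271 at 0 h, log2 ratio 1.08). The ubiquitin-like lgg-1 itself had 10963 at 4 h and 5806 at 0 h (0.91).

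Of 7 fatty acid desaturases 1 was higher, and 3 under control scaling. The higher one was fat-3, which makes polyunsaturated fatty acids, at 3641 at 4 h and 1736 at 0 h, while fat-2, an earlier enzyme of the same route, was at 4099 at 4 h and 2435 at 0 h (0.74). The stearoyl-CoA desaturase fat-6 had 2575 at 4 h and 3102 at 0 h. Of 4 elongases 3 were lower, and 2 under control scaling. Those were elo-5 (1730.3 at 4 h and 6201 at 0 h, log2 ratio -1.82) and elo-6 (1587 at 4 h and 4668 at 0 h, log2 ratio -1.54), which extend monomethyl branched-chain fatty acids, and elo-2, which extends palmitate (533 at 4 h and 1194 at 0 h, log2 ratio -1.12). The elongase elo-1 of the polyunsaturated route had the same value on both arrays. The acyl-CoA synthetase acs-1, which activates branched-chain fatty acids, was lower (1276 at 4 h and 4557 at 0 h, log2 ratio -1.81), and its second probe set gave a log2 ratio of -1.57.

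A list of 18 genes of branched-chain fatty acid and sphingolipid synthesis was drawn up after these values had been seen, and serves as a description only. Of its 17 measured genes 6 were lower, none was higher, and the median was -0.19. Control scaling, applied to this list also after its values were seen, gave 3 lower, none higher and a median of 0.23. Besides acs-1, elo-5 and elo-6 these were bcat-1, the branched-chain amino acid transaminase (2120.3 at 4 h and 4404 at 0 h, log2 ratio -1.04), and the serine palmitoyltransferase genes sptl-2 (196 at 4 h and 493 at 0 h, log2 ratio -1.21) and sptl-3 (479.7 at 4 h and 1009 at 0 h, log2 ratio -1.03). Second probe sets of bcat-1 (-0.27) and sptl-3 (-0.68) stayed within 2-fold. The subunit gene sptl-1 had 492 at 4 h and 504 at 0 h, and the fatty acid synthase fasn-1 had the same value on both arrays.

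Fat breakdown and transport were mixed. The lysosomal lipase lipl-2 was higher (249 at 4 h and 70.2 at 0 h, log2 ratio 1.46), as were far-7, a fatty acid and retinol binding protein (877 at 4 h and 199 at 0 h, log2 ratio 1.98), and acs-22, related to fatty acid transport proteins (649 at 4 h and 200.3 at 0 h, log2 ratio 1.55). The acyl-CoA dehydrogenase acdh-2 was lower (479 at 4 h and 1303 at 0 h, log2 ratio -1.39). So was the carnitine acyltransferase family gene cpt-4 (163 at 4 h and 379 at 0 h, log2 ratio -1.08). Under control scaling acdh-2 and cpt-4 would fall within 2-fold. In the lists that hold them, 1 and 2 other genes would then be higher. The bright far-1 and far-2 had the same value on both arrays. Of 6 yolk genes 1 was lower (none under control scaling), vit-1 (3867 at 4 h and 9514 at 0 h, log2 ratio -1.29), while vit-4 (-0.095) and vit-5 (-0.051) were level.

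Several routes of amino acid and sulfur metabolism lay low. Tyrosine and tryptophan breakdown had 3 of 9 genes lower, none above 0 and a median of -0.79. The tyrosine aminotransferase tatn-1 had 459 at 4 h and 1201 at 0 h, hydroxyphenylpyruvate dioxygenase hpd-1 had 489.7 at 4 h and 1611 at 0 h, and tryptophan dioxygenase tdo-2 had 435 at 4 h and 1036 at 0 h. The later enzymes fah-1 (-0.79) and hgo-1 (0) stayed within 2-fold. Control scaling would leave 1 of the 3 past 2-fold. In the list of hypoxia and hydrogen sulfide genes, 3 of 10 were lower, and 2 under control scaling. These were the cysteine synthase relative cysl-2 (233 at 4 h and 884 at 0 h, log2 ratio -1.79), rhy-1, a membrane protein that restrains the hypoxia factor HIF-1 (309.7 at 4 h and 947 at 0 h, log2 ratio -1.52), and the carbonic anhydrase cah-4 (902 at 4 h and 2289.8 at 0 h, log2 ratio -1.31). The paralogue cysl-1 had 398 at 4 h and 502 at 0 h (-0.31). In 18 genes of methionine and one-carbon metabolism cysl-2 was the only 1 past 2-fold, but 13 lay below 0 and the median was -0.35, which control scaling turns to 0.070, with 1 gene higher and 1 lower.

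The propionate shunt is used by the worm when vitamin B12 is short, and its list had 2 genes lower, against 2 higher and none lower under control scaling. The transhydrogenase hphd-1 was lower (3106 at 4 h and 6590.4 at 0 h, log2 ratio -1.08), as was nhr-114, a nuclear receptor that protects worms on diets poor in B12 (247 at 4 h and 702 at 0 h, log2 ratio -1.40). The shunt dehydrogenase acdh-1 was level at 10339.9 at 4 h and 10234 at 0 h, and the hydratase ech-6 had 5606 at 4 h and 9007 at 0 h (-0.68). The glycerol-making enzyme gpdh-1, which salt stress induces, was lower (155 at 4 h and 402 at 0 h, log2 ratio -1.21). Control scaling would bring gpdh-1 within 2-fold. Central carbon and energy genes mostly stayed within 2-fold. No member passed 2-fold among 19 genes of glycolysis and gluconeogenesis, 25 of the citrate and glyoxylate cycles, 12 of respiratory complex I, 10 of ATP synthase and 19 of the V-ATPase. Of the 19 V-ATPase genes 14 lay below 0, with a median of -0.17, which control scaling turns above 0. Among 20 genes of complexes III and IV, cytochrome c gene cyc-2.2 was lower (310.2 at 4 h and 734 at 0 h, log2 ratio -1.16). Its paralogue cyc-2.1 had a log2 ratio of 0.23. Under control scaling cyc-2.2 would fall within 2-fold and 1 of the 20 would be higher.

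In the list of brush border and gut identity genes, 4 of 20 were lower and none was higher, against 3 lower and 1 higher under control scaling. The phosphatase pho-1 was at least 5.73-fold lower, at 67.0 at 4 h and 539.8 at 0 h, and its second probe set gave a log2 ratio of -2.76. The oligopeptide transporter pept-1 had 181 at 4 h and 959 at 0 h, the microvillar actin act-5 had 905 at 4 h and 3621 at 0 h and the sodium-proton exchanger nhx-2 had 69.1 at 4 h and 195 at 0 h. The products of these 4 genes sit at the apical, lumen-facing side of intestinal cells. Apical erm-1, which links actin to that membrane, was level at 3927 at 4 h and 4030.0 at 0 h, the gut cathepsin cpr-1 had 5447 at 4 h and 4189.5 at 0 h (0.38), and the list's median was -0.019. None of 22 cysteine and aspartic proteases passed 2-fold, and 3 would be higher under control scaling. In a bulk sample, fewer cells of a type and less RNA per cell cannot be told apart.

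Of 60 solute transporters 2 (3.33%) were higher and 6 (10%) lower, against 1.71% and 3.25% of all genes. Control scaling turned that split to 4 higher and 1 lower. Besides hmit-1.3 the higher one was slc-36.5, of an amino acid transporter family (437 at 4 h and 108 at 0 h, log2 ratio 1.74). The lower ones included folt-2, of the folate transporter family (801 at 4 h and 2065 at 0 h, log2 ratio -1.33), and slc-17.5 (58.1 at 4 h and 183 at 0 h, at least 2.15-fold lower at 4 h), besides pept-1 and nhx-2. Aquaporin aqp-4 was lower (87.0 at 4 h and 213 at 0 h, log2 ratio -1.04), and under control scaling 2 aquaporins would be higher and none lower, while aqp-2 had 4860.3 at 4 h and 2703 at 0 h (0.84).

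Lectins and saposin-like genes went both ways. Among 51 measured C-type lectins 4 (7.84%) were higher and 3 (5.88%) lower, against 1.71% and 3.25% of all genes. Control scaling turned that split to 12 higher and 2 lower. At the top were clec-7 (653 at 4 h and 108 at 0 h, log2 ratio 2.29) and clec-76 (697 at 4 h and 200.2 at 0 h, log2 ratio 1.65). At the bottom clec-57 (111 at 4 h and 402 at 0 h, log2 ratio -1.61) stood next to clec-265. Of 12 saposin-like genes, which encode pore-forming or lipid-binding peptides, spp-31 was higher (525 at 4 h and 114 at 0 h, log2 ratio 1.93), while spp-23 (196 at 4 h and 1059.6 at 0 h, log2 ratio -2.26) and spp-4 (796 at 4 h and 1816 at 0 h, log2 ratio -1.16) were lower (2 higher and 1 lower under control scaling). The invertebrate lysozyme ilys-3 was higher (280.3 at 4 h and 81.2 at 0 h, log2 ratio 1.46), and the bright ilys-5 had 8032 at 4 h and 14959 at 0 h (-0.89). Of 9 infection-response genes 3 were lower (2 under control scaling), led by irg-8 (806 at 4 h and 3214 at 0 h, log2 ratio -1.95). Epidermal antimicrobial peptide genes lay low together. Of 11 measured, 5 were lower and 10 were below 0, with a median of -0.97, and the lowest was nlp-26 (179.8 at 4 h and 782 at 0 h, log2 ratio -1.94). The bright nlp-33 had 1700.1 at 4 h and 3309.9 at 0 h (-0.95), short of 2-fold. Of the 11, 8 have a probe set that may cross-hybridise, and control scaling would leave 1 lower. In shares, 8.33% of the saposin-like genes were higher and 16.7% lower. Of the infection-response genes 33.3% were lower, and of the antimicrobial peptide genes 45.5%.

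Secreted proteins of other kinds held some of the larger ratios. After scl-2, scl-5 was the second higher gene of 5 measured in its family (931 at 4 h and 361 at 0 h, log2 ratio 1.29). Of 32 transthyretin-like genes 4 (12.5%) were higher and 2 (6.25%) lower, against 1.71% and 3.25% of all genes. Leading were ttr-23 (532 at 4 h and 131 at 0 h, log2 ratio 1.79) and ttr-44 (1989.8 at 4 h and 625 at 0 h, log2 ratio 1.62). The lower ones were ttr-31 (193 at 4 h and 647 at 0 h, log2 ratio -1.59) and ttr-14 (639 at 4 h and 1416 at 0 h, log2 ratio -1.11). Control scaling gave 6 higher and 1 lower. Hedgehog-related genes, whose products act in the cuticle and epidermis, had 6 of 28 (21.4%) lower and none higher. Of these, grd-10 had 369 at 4 h and 1409 at 0 h and grd-14 had 332 at 4 h and 1011 at 0 h, and the list's median was -0.28, while control scaling gave 2 lower, 1 higher and a median of 0.14.

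Cuticle collagens named col leaned downward. Of 97 measured, 15 (15.5%) were lower, against 3.25% of all genes, and none was higher. Of the 97, 80 lay below 0, with a median of -0.25. The lowest ratios were in col-49 (343 at 4 h and 1614 at 0 h, log2 ratio -2.13) and col-120 (112 at 4 h and 533 at 0 h, log2 ratio -1.97). The brightest, col-93, was level at 29682 at 4 h and 31806 at 0 h. Under control scaling 6 would be lower and the median would be 0.16. The body-shape collagens divided, with rol-1 (226 at 4 h and 752 at 0 h, log2 ratio -1.60), dpy-5 (477 at 4 h and 1209 at 0 h, log2 ratio -1.28) and bli-1 (92.4 at 4 h and 244 at 0 h, log2 ratio -1.15) lower and dpy-14 and dpy-17 higher (2 higher and 1 lower under control scaling). The first of these higher genes, dpy-14, was at 657 at 4 h and 163 at 0 h, and dpy-17 was at 1077 at 4 h and 356 at 0 h. With them stood noah-1, a component of the embryonic and moulting cuticle (1344 at 4 h and 450.0 at 0 h, log2 ratio 1.51), and hch-1, the astacin protease needed for hatching (326 at 4 h and 99.7 at 0 h, log2 ratio 1.44). These 4 genes are the higher members of their lists. They are known for roles in embryos and larvae and had still higher values at 24 h, at 2792, 4302, 2199 and 592. How many embryos the animals carried at each time was not measured. Other members of these lists went both ways. Of 14 body-shape collagens 2 lay above 0 and 11 below, with a median of -0.45. Of 10 astacin genes 5 lay above 0 and 5 below. In the lists that hold noah-1, 5 of 9 cuticlin genes lay above 0 and 4 below, and 10 of 20 moulting genes above and 9 below. At 1.5-fold, 7 of the 20 moulting genes were higher and none was lower. The astacins toh-1 (183 at 4 h and 526 at 0 h, log2 ratio -1.38) and nas-30 (67.2 at 4 h and 169 at 0 h, at least 2.01-fold lower) were lower. Under control scaling both would fall within 2-fold. Of 43 abu and pqn genes, many of them expressed in the pharynx, 9 (20.9%) were lower and none higher (6 lower and 3 higher under control scaling). The lowest were pqn-54 (118 at 4 h and 555 at 0 h, log2 ratio -1.97) and abu-14 (424 at 4 h and 1587 at 0 h, log2 ratio -1.83).

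Among nuclear genes, linker histones lay above 0 together. All 8 measured lay above 0 and 3 were higher, hil-1 (936 at 4 h and 214 at 0 h, log2 ratio 1.97), hil-7 (3135 at 4 h and 1149 at 0 h, log2 ratio 1.42) and hil-3 (3476 at 4 h and 1665 at 0 h, log2 ratio 1.05), with a median of 0.65, and 5 would be higher under control scaling. The bright linker histone his-24 had 6619.9 at 4 h and 4307 at 0 h (0.62), while its other probe set gave a log2 ratio of 1.29, past 2-fold. By the brightest probe set, none of 26 core and variant histone genes, a list that also holds his-24, passed 2-fold. Of 77 nuclear hormone receptors none was higher and 4 (5.19%) were lower, against 1.71% and 3.25% of all genes. Control scaling gave 6 higher and 1 lower. Besides nhr-114 the 4 lower receptors were nhr-17 (117 at 4 h and 417 at 0 h, log2 ratio -1.60), nhr-137 (123 at 4 h and 355 at 0 h, log2 ratio -1.33) and nhr-3 (320.2 at 4 h and 748 at 0 h, log2 ratio -1.15). The lipid regulator nhr-49 was level at 3862 at 4 h and 3809 at 0 h. In insulin signalling, the receptor-substrate-like ist-1 was higher (677 at 4 h and 241 at 0 h, log2 ratio 1.38). The insulin-like peptide ins-6 was lower, at 70.1 at 4 h and 173 at 0 h, close to the floor at 4 h. Under control scaling ins-6 would fall within 2-fold. None of 23 GATA and stress transcription factor genes passed 2-fold, and 2 would be higher under control scaling.

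Of 18 skr genes 3 were higher and none was lower. They encode Skp1-like subunits of ubiquitin ligases that work with F-box proteins, and skr-5 was at least 2.17-fold higher at 185 at 4 h and 28.6 at 0 h. Of 48 F-box genes 1 was higher and 1 lower (2.08% each), close to the 1.71% and 3.25% of all genes. These were fbxa-69 (493 at 4 h and 143 at 0 h, log2 ratio 1.59) and fbxa-72 (99.3 at 4 h and 343 at 0 h, log2 ratio -1.51). Control scaling gave 3 higher and 1 lower. Among 113 classes of at least 8 genes with the same name stem, 73 held no called gene, 10 held higher genes only, 18 held lower genes only and 12 held both. Over 82 gene lists, chosen with earlier results of these data known and holding 1685 of the measured genes, 42 genes were higher (2.49%) and 121 lower (7.18%), against 1.71% and 3.25% of all genes. Of these lists 28 held no called gene, 14 held higher genes only, 27 held lower genes only and 13 held both. Tetraspanins had 2 of 9 genes higher, and the dbd class had 3 of 9 lower, against 1.71% higher and 3.25% lower of all genes. The lowest dbd ratio was -1.28, so control scaling would bring these 3 within 2-fold. The skr, tetraspanin and dbd classes were picked from the 113 after their values were seen.

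**Figure D4:**
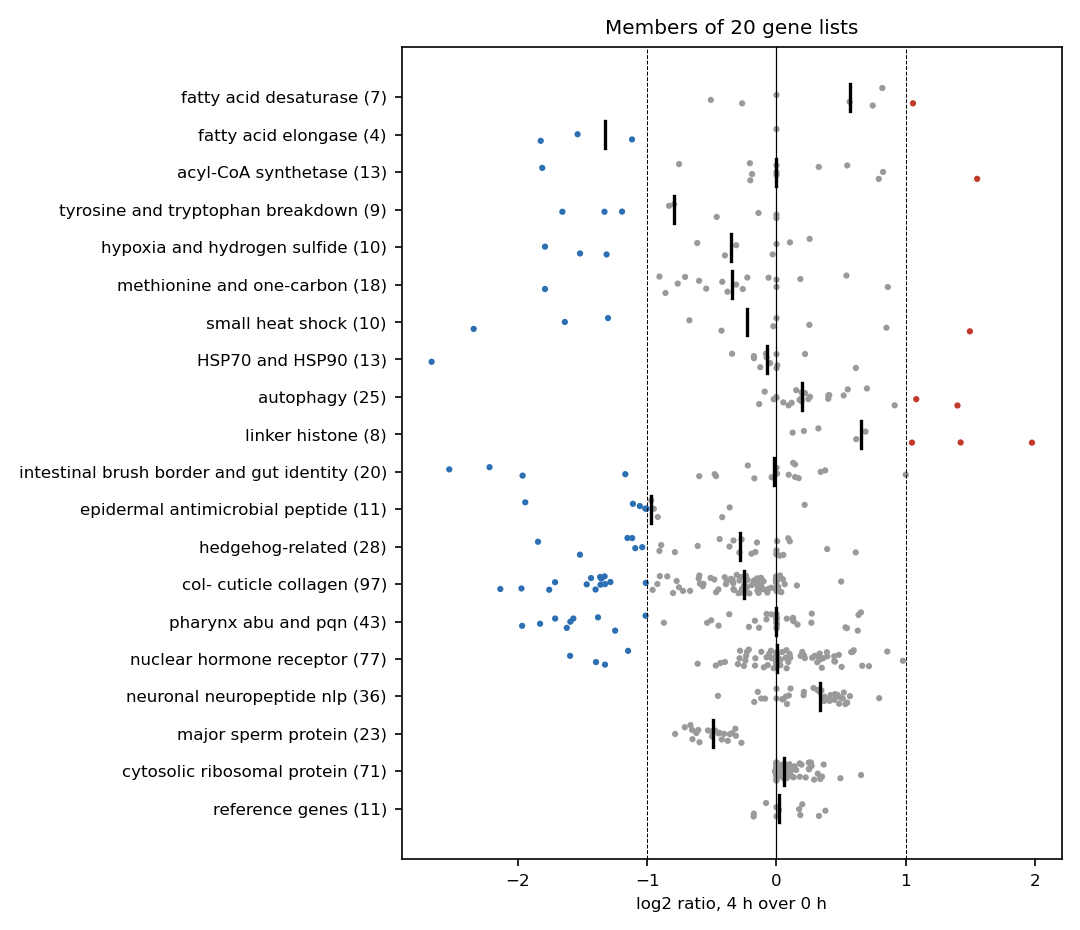
Log2 ratio of 4 h over 0 h for each member of the gene lists named on the left, with the number of measured genes in brackets. Each point is a gene, red where 2-fold higher and blue where 2-fold lower, the black bar is the median and dashed lines mark 2-fold; the linker histones lie above 0 throughout, the major sperm protein genes lie below 0 throughout and the ribosomal protein genes lie close to 0.

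Translation genes were level or slightly above 0. No gene passed 2-fold among 71 cytosolic and 56 mitochondrial ribosomal proteins, 30 aminoacyl-tRNA synthetases and 19 ribosome biogenesis factors, and of 28 initiation and elongation factors only eif-2A was higher (1149 at 4 h and 535 at 0 h, log2 ratio 1.06). Control scaling would put 1, 3, 3, 2 and 2 genes of these 5 lists, in that order, past 2-fold higher. The 11 genes often used as references for normalisation ranged between -0.18 for pgk-1 and 0.38 for tba-1, a tubulin. Their median was 0.019. Among them rps-23 and pmp-3 had the same value on both arrays, ama-1 had 487 at 4 h and 419.9 at 0 h, cdc-42 had 735 at 4 h and 643 at 0 h, csq-1 had 1443 at 4 h and 1275 at 0 h, and rpl-32 had 16497 at 4 h and 16277 at 0 h. The glyceraldehyde phosphate dehydrogenase genes gpd-2 and gpd-3 had log2 ratios of -0.081 and 0.33, and eif-3.C one of -0.17.

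Markers of other cell types moved in part. All 23 major sperm protein genes were below 0, between -0.78 and -0.27, with summed intensities of 145472 at 4 h and 198629 at 0 h and none past 2-fold. Their median of -0.49 became -0.075 under control scaling. All 23 have probe sets open to cross-hybridisation, so they are not 23 separate readings. Of 28 other sperm genes 24 were below 0 and 1 was lower, ssp-16 (318 at 4 h and 722 at 0 h, log2 ratio -1.10), with none lower under control scaling and summed intensities of 17313 at 4 h and 27075 at 0 h. The part of this in the lower genes as a whole was not tested. Oocyte and eggshell genes were level, with none of 28 past 2-fold and a median of 0.0067. Of 29 body wall muscle filament genes the obscurin-like unc-89 (1291 at 4 h and 2699 at 0 h, log2 ratio -1.05) and the troponin T gene tnt-3 (381 at 4 h and 868 at 0 h, log2 ratio -1.12) were lower, and none under control scaling. The 3 other probe sets of unc-89 stayed within 2-fold, with log2 ratios between -0.43 and -0.056. Of 8 pharyngeal muscle genes none passed 2-fold, and 2 would be higher under control scaling. No flp neuropeptide gene of 23 and no neuronal nlp gene of 36 passed 2-fold, yet 21 of the 23 and 29 of the 36 lay above 0, with medians of 0.25 and 0.33. Under control scaling 2 flp genes and 1 nlp gene would be higher.

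Called genes that are neighbours on a chromosome were more frequent than over all genes. Of 90 higher genes with a measured adjacent gene 8 had a higher neighbour (8.89%), against 1.80% of 6661 genes in all. Of 201 lower genes 37 had a lower neighbour (18.4%), against 3.62% in all. These lower genes formed 17 pairs and 1 run of 3, which held cyp-35A3, K09D9.1 (85.2 at 4 h and 312 at 0 h, log2 ratio -1.55) and cyp-35A4. Pairs picked out after their values were seen were hsp-16.2 with hsp-16.41, abu-15 (441 at 4 h and 1421 at 0 h, log2 ratio -1.62) with abu-6 (434 at 4 h and 1353 at 0 h, log2 ratio -1.57), grd-3 (1701 at 4 h and 3662 at 0 h, log2 ratio -1.09) with grd-10, dod-19 (986 at 4 h and 3168 at 0 h, log2 ratio -1.65) with irg-8, and, among higher genes, tsp-1 (233 at 4 h and 46.1 at 0 h, at least 2.66-fold higher at 4 h) with tsp-2. Several pairs are members of 1 gene family, and related neighbours can share sequence that a probe set detects.

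The 24 h array gave later values for the same genes. Of the lower genes, gst-4 had intensities of 981 (0 h), 107 (4 h) and 81.5 (24 h), ugt-13 had intensities of 1959.7 (0 h), 147 (4 h) and 95.4 (24 h) and cyp-35C1 had intensities of 9296 (0 h), 1234 (4 h) and 333 (24 h), so each was lowest at 24 h. By contrast hsp-70 had intensities of 474 (0 h), 47.7 (4 h) and 265 (24 h) and hsp-16.2 had intensities of 466 (0 h), 66.3 (4 h) and 414 (24 h), so these were lowest at 4 h, whereas hsp-17 had intensities of 1173 (0 h), 456 (4 h) and 405 (24 h), lowest at 24 h. The pharyngeal gene abu-14 had intensities of 1587 (0 h), 424 (4 h) and 2449 (24 h) and nhr-17 had intensities of 417 (0 h), 117 (4 h) and 657 (24 h), in both the lowest at 4 h and the highest at 24 h. Among higher genes mtl-1 had intensities of 177 (0 h), 3165 (4 h) and 2108 (24 h) and ftn-1 had intensities of 519 (0 h), 4899.7 (4 h) and 1300.0 (24 h), highest at 4 h, while hsp-12.6 had intensities of 76.4 (0 h), 274 (4 h) and 1675 (24 h) and hil-7 had intensities of 1149 (0 h), 3135 (4 h) and 8183 (24 h), highest at 24 h. The comparisons of 4 h and of 24 h with 0 h share the 0 h array, so these values are given side by side only.

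**Figure D5:**
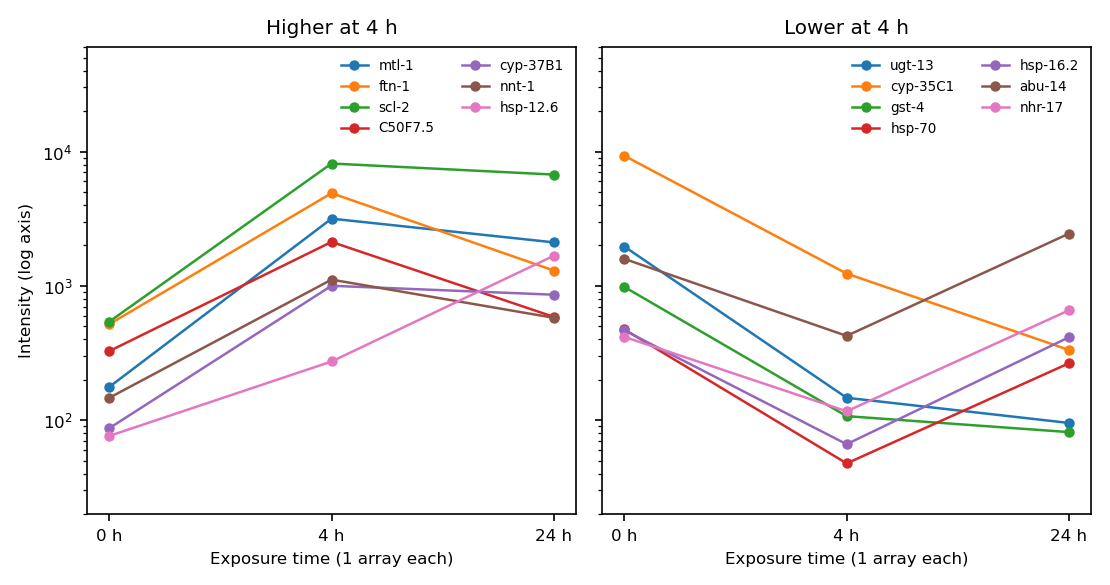
Intensity (log axis) at 0 h, 4 h and 24 h of 7 genes higher at 4 h (left) and 7 genes lower at 4 h (right), chosen as examples after their values were seen, 1 array per time and joined by lines. On the left scl-2 reaches 8144 at 4 h and hsp-12.6 is highest at 24 h; on the right hsp-70 and hsp-16.2 have their lowest value at 4 h, and cyp-35C1 is lowest at 24 h.

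Other genes with large ratios belong to none of these lists and were picked after their values were seen. The long non-coding RNA tts-1, which binds ribosomes in long-lived mutants, was the brightest of the higher genes (13413 at 4 h and 4574 at 0 h, log2 ratio 1.55). The cell cycle inhibitor cki-1 (1069 at 4 h and 468 at 0 h, log2 ratio 1.14), the heterochronic transcription factor hbl-1 (1144 at 4 h and 379 at 0 h, log2 ratio 1.52) and the Argonaute sago-1 (966 at 4 h and 449 at 0 h, log2 ratio 1.05) were higher, as were efk-1, the kinase of elongation factor 2 (1152 at 4 h and 469 at 0 h, log2 ratio 1.24), and the alcohol dehydrogenase family gene adh-1 (6651 at 4 h and 2208 at 0 h, log2 ratio 1.58). Lower were smd-1, the S-adenosylmethionine decarboxylase of polyamine synthesis (221 at 4 h and 934 at 0 h, log2 ratio -1.93), whose second probe set gave a log2 ratio of -0.76, and sur-5, an acetoacetyl-CoA synthetase relative (1518 at 4 h and 4718 at 0 h, log2 ratio -1.62), whose second probe set gave a log2 ratio of -1.50.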

How the data were processed

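Total RNA of young adult worms was measured on an Affymetrix C. elegans 3' expression array, 1 array per time. Per the labels' protocols, a 3' in vitro transcription kit made the labelled cRNA. The deposited values are probe set intensities on a linear scale, normalised by the authors. Affymetrix Expression Console 1.1, MAS5 and RMA are named per the submitters' processing notes; which step made the values is not given in the sources used here. Ratios on the log2 scale were computed here from the deposited intensities after adding 32.

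The array holds 22625 probe sets, with 77 controls, 20766 assigned to a single gene, 887 to several genes and 895 to none. Names follow the platform annotation, updated for 20701 of the 20766 from RefSeq's WBcel235 gene table, which also gave the order of genes. The brightest passing probe set stood for each gene. Probe sets marked _x_ or _s_ by the manufacturer were taken as open to cross-hybridisation. The floor, 67.83, is the highest intensity among 8 controls for absent transcripts. Bounds were computed against it with 32 added to both values. Precision is limited by the number of arrays, and no test or p-value was computed.

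The genes described, the gene lists and the thresholds were chosen with earlier results of these data known. Genes were named if among the 25 highest or lowest ratios, if among up to 4 higher or lower members of a list by ratio or the 2 members within 2-fold that were brightest at 0 h, or if they were reference genes, metallothioneins or ferritins, or members of a run of 3 or more called neighbours. Any others named were picked after their values were seen. These include the genes next to the threshold, second probe sets and chromosome pairs. Classes of at least 8 genes with 1 name stem were counted.

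Alternatives changed the threshold (1.5-fold and 3-fold), the scaling (quantile, array median, lowess with span 0.3, hybridisation controls), the added value (1 and 100), the filter, the probe set taken for a gene, and the use of _x_ and _s_ probe sets. No sequence was printed and no motif searched. The code was tested on simulated data with known changes. It ran on Python 3.11.15 with numpy 2.4.6, pandas 2.3.3, statsmodels 0.14.6 and matplotlib 3.10.9.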

Additional observations from a re-analysis of the deposited data

Results flagged for a closer look

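Probe sets outside the gene results also carried signal above 2-fold. Of 367 passing probe sets annotated to several genes, 4 were higher at 4 h and 28 lower, 1.09% and 7.63%, and these shares were not tested against those of the genes. The higher ones were the probe set of F45D11.14, F45D11.15 and F45D11.16 at 650.3 at 4 h and 45.1 at 0 h, at least 6.83-fold higher, that of thn-1 and thn-2, thaumatin-family genes, at 1728 at 4 h and 374 at 0 h, that of F35E8.10 and F35E8.13 at 177 at 4 h and 34.6 at 0 h, and that of fbxa-91 and fbxa-92 at 173 at 4 h and 64.9 at 0 h. The 28 lower ones include the heat shock probe sets given above and that of chca-1 and srm-3, at 176 at 4 h and 796 at 0 h. Of 182 passing probe sets annotated to no gene, 2 were higher and 3 lower. Which transcripts these probe sets detected was not tested.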

How the results depend on the processing

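The counts of 148 higher and 281 lower genes became 531 and 722 at 1.5-fold, 45 and 86 at 3-fold, and 71 and 112 with the filter at the 75th percentile, which tests 4532 genes. Scaling on the hybridisation controls gave 531 higher and 119 lower genes, and the higher share of the calls was then 81.7%, against 34.5% as reported. All 148 higher genes stayed higher and 119 of the 281 stayed lower under that scaling, and what moved the controls was not tested. Under the other alternatives listed in the processing, higher counts lay between 104 and 208 and lower counts between 190 and 337, each within 1.5 times the reported count. With the filter on the 4 h and 0 h arrays alone, 144 of 8648 genes were higher and 294 lower. No named gene turned its direction while past 2-fold. Of 153 named genes past 2-fold, 115 kept their call under scaling on the hybridisation controls and 132 with 100 added. List medians between -0.41 and 0 turn above 0 under that scaling. No paired analysis was possible because each time has 1 array, and no array could be left out for the same reason. Signal over background limits 31 of the called genes to bounds.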
